A study of Oryctolagus cuniculus with 35 samples.

Results

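HIF1A (ENSOCUG00000017741), DDIT4 (ENSOCUG00000016772), NDRG1 (ENSOCUG00000016394) and MXI1 (ENSOCUG00000015401) were followed in rabbit lung as 4 of the 23669 genes measured. They were taken by symbol, and each symbol stood on a single row in all 4 deposited tables. The lungs came from 35 rabbits of the New Zealand breed, 7 in each of 5 groups, and each rabbit gave 1 messenger RNA library. In 4 of the groups the rabbits had pneumococcal pneumonia and adverse mechanical ventilation, and 4 h after the bacteria were given they received ceftaroline plus MSC, ceftaroline, MSC, or saline as a control (NaCl). MSC stands for human mesenchymal stromal cells from umbilical cord, infused into a vein at 3000000 cells per kg, and ceftaroline is a cephalosporin antibiotic, injected at 20 mg per kg. The healthy group received saline only. Lung pieces were taken at autopsy at 24 h, or at death where that came earlier, so the time after infection was not the same for all rabbits.

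HIF1A encodes the oxygen-regulated subunit of hypoxia-inducible factor, a transcription factor that pairs with ARNT. With oxygen present, prolyl hydroxylases of the EGLN family mark the HIF1A protein for destruction, so its activity is set largely at the protein level, while its transcript can also be raised by inflammatory signals in myeloid cells. DDIT4, NDRG1 and MXI1 are genes that HIF raises in human cell lines. DDIT4 (REDD1) restrains the growth kinase complex mTORC1 and is also induced by glucocorticoids and by the stress factor ATF4. NDRG1 is a stress protein induced by low oxygen and iron depletion. MXI1 binds MAX and represses genes that MYC activates. In the lung, hypoxia and neutrophil influx are both features of severe pneumonia.

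Reads assigned to genes ran from 7567008 to 33209729 per library with a median of 11137017, and were most numerous with ceftaroline, with 11499403 or more. Per library, DDIT4 had 4947 to 93879 reads, HIF1A 303 to 28176, NDRG1 228 to 1580 and MXI1 18 to 149, so MXI1 carried the largest relative counting error. Sample titles with a 2-letter ending (PD or PG), whose meaning is not given, belong to 2 MSC, 3 NaCl and 5 healthy libraries; PD stands on 4 healthy libraries and on no other. The titles of healthy replicates 6 and 7 begin with D, the letter of the ceftaroline titles, and each repeats the number of a ceftaroline title, while their group label is healthy. A mark S00 in the descriptions stands on all 7 healthy libraries and, among the others, on NaCl replicate 2. The mark and the disease can thus hardly be told apart. NaCl replicate 2 lay outside the healthy range for all 4 genes, with 454 CPM (recovered reads scaled to a common total) for HIF1A, 1464 for DDIT4, 78.7 for NDRG1 and 5.11 for MXI1. Among NaCl libraries without a title ending it was the lowest for DDIT4 and NDRG1. The others of that set lay at 2645 to 2950 CPM for DDIT4 and 98.2 to 179 CPM for NDRG1. The part of the mark in these values was not tested. Several markers that define lung cell types had no read in any library, healthy lungs included, among them SFTPC and SFTPD (type II cells), SCGB1A1 (airway club cells) and CLDN5 and ERG (endothelium). Other type II markers, SFTPB and SLC34A2, had reads. Of the 23669 rows, 13452 had at least 1 read. A row without reads is therefore not taken as a gene silent in lung, and why such rows are empty was not tested. Across bulk lung, fewer cells of a type and less RNA per cell cannot be told apart.

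**Figure D1:**
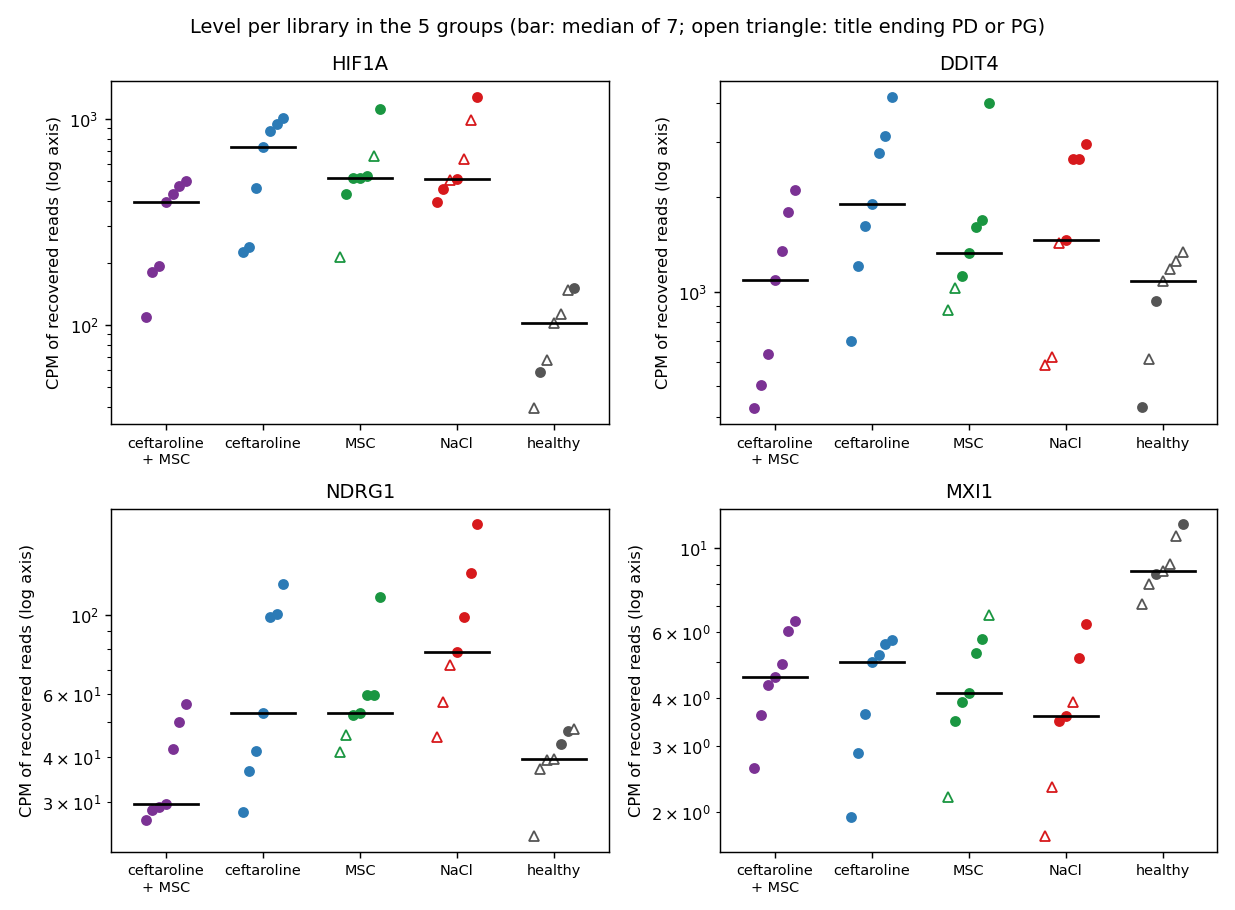
Level of each gene in every library, as CPM (recovered reads scaled to a common total) on a log axis, by group; points are rabbits, bars are group medians of 7, and open triangles are libraries whose title has an ending. MXI1 lies at 1.73 to 6.66 CPM in all 28 pneumonia libraries, below the 7.12 to 11.5 CPM of healthy lungs, and HIF1A lies above the healthy range, which ends at 151 CPM, in all pneumonia libraries but 1, a ceftaroline plus MSC library at 109 CPM. The share of all genes set apart in this way over the 28 libraries was not computed.

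Pneumonia with ventilation was compared with healthy lung to ask which of the 4 transcripts change with the disease. HIF1A and NDRG1 rose, MXI1 fell, and DDIT4 did not pass the test. Thus 3 of 4 genes were called, while 60.6% of the 9545 genes tested were called by limma at an adjusted p under 0.05 (29.7% higher and 30.9% lower). With so many genes changed, a call by itself says little about these 4. HIF1A and MXI1 also had no overlap between the groups, as did 29.9% of all genes tested (14.7% with NaCl above healthy, 15.2% below).

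HIF1A had 3794, 4777 and 12124 normalized reads as its lowest, median and highest value in NaCl lungs, against 371, 961 and 1374 in healthy lungs. Every NaCl lung lay above every healthy lung, and the lowest NaCl value was well clear of the highest healthy one. The means were 6479 ± 3099 in NaCl and 902 ± 395 in healthy lungs (SD, n = 7 each). The log2 fold change was 2.86 (SE 0.32, adjusted p = 2.5e-06 by limma across all genes).

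NDRG1 had 447, 747 and 1717 normalized reads as its lowest, median and highest value in NaCl lungs, against 228, 370 and 452 in healthy lungs. The groups touched in a single library, with 6 of 7 NaCl lungs above all healthy lungs. The log2 fold change was 1.16 (SE 0.26, adjusted p = 0.00119 by limma). Its relatives behaved otherwise. NDRG2 (-2.54, SE 0.24, adjusted p = 5.0e-07 by limma) and NDRG4 (-2.80, SE 0.35, adjusted p = 6.5e-06 by limma) fell with no overlap between groups, so of the other 3 family members none rose and 2 fell. In MSC over NaCl only 2 of these 3 passed the filter on low values, and the authors' deposited values give NDRG4 no adjusted p there. NDRG4 thus likely entered the test only through the healthy lungs, where it was high. Its fall is therefore not counted as support. Of all genes tested, 30.9% were called lower and 60.6% in either direction, and 15.2% lay below healthy with no overlap. NDRG3 was at -0.61 (adjusted p = 0.0871 by limma).

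MXI1 had 17.0, 33.6 and 60.3 normalized reads as its lowest, median and highest value in NaCl lungs, against 66.9, 82.1 and 107 in healthy lungs. All NaCl lungs lay below all healthy lungs. The log2 fold change was -1.31 (SE 0.25, adjusted p = 0.000325 by limma).

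DDIT4 had 5743, 13900 and 28346 normalized reads as its lowest, median and highest value in NaCl lungs, against 3988, 10240 and 12631 in healthy lungs. In NaCl lungs the values were widely spread, with 5 of 7 above all healthy lungs and the other 2 inside the healthy range. The log2 fold change was 0.73 (SE 0.39, 95% interval -0.11 to 1.56, adjusted p = 0.121 by limma). The tools differed on this gene: the authors' deposited table gives 0.87 with an adjusted p of 0.0375, DESeq2 on the recovered reads gave an adjusted p of 0.0318, and edgeR gave 0.0596. Without NaCl replicate 5 or NaCl replicate 7, limma gave 0.94 in each case, with an adjusted p of 0.0375 or 0.0416.

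**Figure D2:**
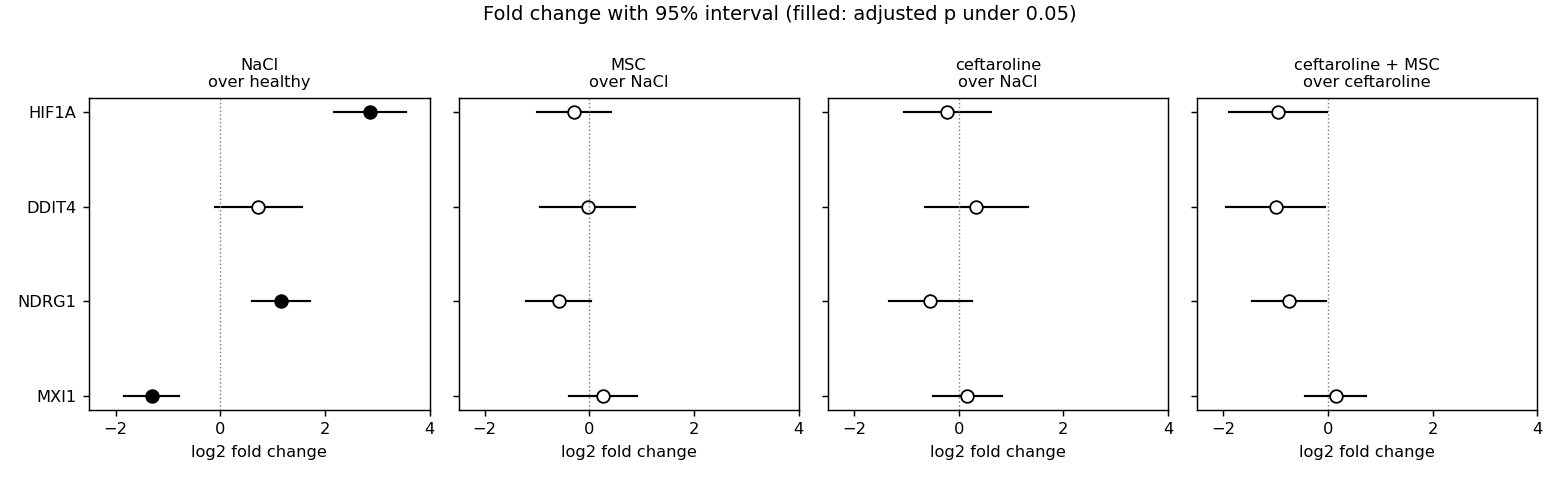
Log2 fold change of each gene (points) with its 95% interval (lines) in the 4 comparisons, each as the first-named group over the second; filled points have an adjusted p under 0.05 by limma. The filled points are HIF1A at 2.86, NDRG1 at 1.16 and MXI1 at -1.31, all in NaCl over healthy.

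The 2 NaCl libraries that lay low for DDIT4 both had a title ending. In libraries with an ending, DDIT4 was at 586, 622 and 1436 CPM in NaCl lungs, and its median was 1180 CPM in the 5 healthy lungs with an ending, a log2 fold change of -0.37 (adjusted p = 0.370 by limma). In libraries without an ending, DDIT4 was at 1464, 2645, 2660 and 2950 CPM in NaCl lungs, against 429 and 937 CPM in healthy lungs, a log2 fold change of 1.94 (adjusted p = 0.00884 by limma). All 4 NaCl lungs without an ending lay above all 3 with one. The fold change with an ending minus that without was -2.31 (SE 0.56, 95% interval -3.51 to -1.10, adjusted p = 0.0219 by limma); this test was chosen after the values were seen, and 9.69% of the 9545 genes passed it. Without healthy replicates 6 and 7, the difference was -2.14 (SE 0.62) and did not pass (adjusted p = 0.0548 by limma). All 3 NaCl libraries with an ending have PG, against 1 PG and 4 PD among the healthy ones, so within this set the kind of ending and the disease can hardly be told apart. In NaCl, titles that carry an ending differ in their first letter as well, so ending and first letter cannot be told apart.

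NDRG1 was likewise at 45.7, 57.0 and 72.2 CPM in NaCl lungs with an ending and at 78.7, 98.2, 131 and 179 CPM in those without. Its rise held in both sets, at 0.67 with an ending (adjusted p = 0.0298 by limma) and 1.40 without (adjusted p = 0.0139), and the difference between them was -0.74 (SE 0.41, adjusted p = 0.263). HIF1A rose by 3.02 with an ending and 2.68 without on the log2 scale (adjusted p = 0.000118 and 0.00757 by limma). MXI1 fell by 1.72 with an ending (adjusted p = 0.000583 by limma), and was at -1.08 without (adjusted p = 0.0511), where 2 healthy lungs remain.

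**Figure D3:**
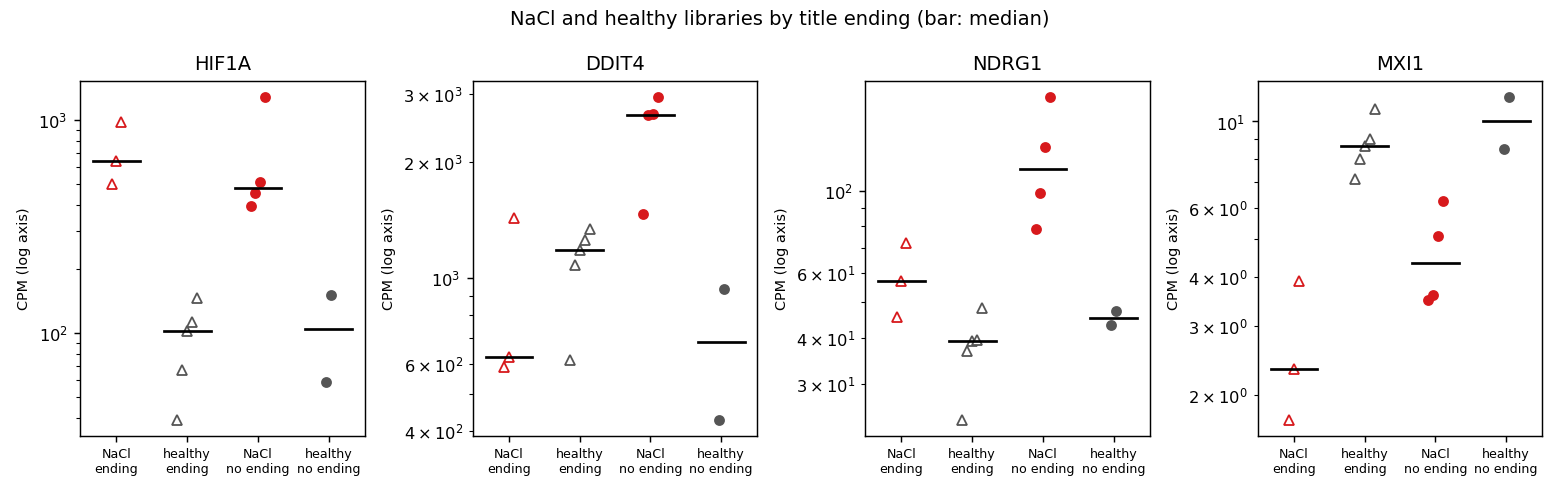
CPM on a log axis in NaCl and healthy libraries, split by whether the sample title has an ending; points are rabbits and bars medians. DDIT4 in NaCl lungs lies at 586 to 1436 CPM with an ending and at 1464 to 2950 CPM without, while HIF1A in NaCl lungs lies above healthy lungs in both sets.

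Genes that act with HIF1A were described from a list of its known regulators and partners. Of 12 genes that control HIF, 5 could be tested, and all 5 changed in NaCl against healthy lungs, 4 higher and 1 lower, where 29.7% of all genes tested were called higher and 30.9% lower. EGLN3, a prolyl hydroxylase that HIF itself induces, rose with a log2 fold of 2.44 (SE 0.36, adjusted p = 2.9e-05 by limma). ARNT, the partner of HIF1A, rose by 0.81 (SE 0.19, adjusted p = 0.00165), and HIF1AN, which hydroxylates HIF1A and blocks its coactivators, by 0.63 (SE 0.15, adjusted p = 0.00245). EPAS1, the HIF2 subunit that is abundant in lung endothelium, fell by 0.86 (SE 0.31, adjusted p = 0.0239). The log2 fold changes of HIF1A and EPAS1 thus had opposite signs. With reads scaled by the library total, 1 of these 5 genes was called higher and 1 lower, and without healthy replicates 6 and 7, 4 were called higher and 0 lower.

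Of 32 further genes that HIF is known to raise, 20 could be tested, and 11 were higher and 2 lower in NaCl than in healthy lungs, where 29.7% of all genes tested were called higher and 30.9% lower. The share of the list called in either direction is near the 60.6% of all genes. Without healthy replicates 6 and 7, 8 were higher and 2 lower. With all libraries the median log2 fold change was 1.01, where that of all genes tested was 0.00. The largest rises were those of CA12, a carbonic anhydrase (5.87, SE 0.55, adjusted p = 4.0e-07 by limma), SLC2A1, the glucose transporter GLUT1 (2.76, SE 0.35, adjusted p = 7.3e-06), and ERO1A, an oxidase of protein folding (2.73, SE 0.55, adjusted p = 0.000487). SLC2A1 had 315, 831 and 1612 normalized reads as its lowest, median and highest value in NaCl lungs, against 80.6, 130 and 168 in healthy lungs, with no overlap. The 2 falls were those of VLDLR, a lipoprotein receptor (-1.98, SE 0.20, adjusted p = 8.6e-07), and INSIG2, a regulator of sterol synthesis (-0.91, SE 0.28, adjusted p = 0.0104). Split by title ending, 7 of the 20 were higher and 5 lower in libraries with an ending, and 11 were higher and 1 lower in those without. LDHA, BNIP3, PFKFB3 and ANGPTL4 had no read in any library, and VEGFA, PDK1 and PGK1 have no row under these symbols, so the list covers HIF's targets in part.

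Other genes around DDIT4 and MXI1 moved in both directions, as did all genes tested, of which 60.6% were called. Of 6 tested genes that restrain mTORC1 as DDIT4 does, SESN2 rose by 1.07 (SE 0.27, adjusted p = 0.00270 by limma), while SESN1 (-1.26, SE 0.18, adjusted p = 1.9e-05) and DEPTOR (-1.18, SE 0.33, adjusted p = 0.00612) fell. Of 6 tested glucocorticoid-induced genes, DUSP1 (2.47, SE 0.21) and FKBP5 (2.00, SE 0.37) rose, and TSC22D3 (-0.82, SE 0.25), ZBTB16 (-0.73, SE 0.26) and KLF9 (-0.55, SE 0.18) fell; without healthy replicates 6 and 7, 2 were called higher and 1 lower. Of 5 tested targets of ATF4, ATF3 (3.52, SE 0.50), CHAC1 (3.23, SE 0.29), TRIB3 (1.92, SE 0.27) and ASNS (1.79, SE 0.20) rose and VLDLR, also counted among the HIF targets, fell.

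In the network of MAX partners to which MXI1 belongs, 3 of 8 tested genes rose and none of the others passed, where 29.7% of all genes tested were called higher and 60.6% in either direction. MXD1, another MAX-binding repressor, rose with a log2 fold of 4.30 (SE 0.49, adjusted p = 2.8e-06 by limma). MYC, the activator that MXI1 opposes, rose by 2.17 (SE 0.30, adjusted p = 1.9e-05), and MAX, the shared partner, by 1.73 (SE 0.18, adjusted p = 9.6e-07). MYC had 530, 1157 and 2477 normalized reads as its lowest, median and highest value in NaCl lungs, against 207, 278 and 340 in healthy lungs. The 3 genes that rose had no overlap between the groups, in the opposite direction to MXI1, as had 14.7% of all genes tested.

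**Figure D4:**
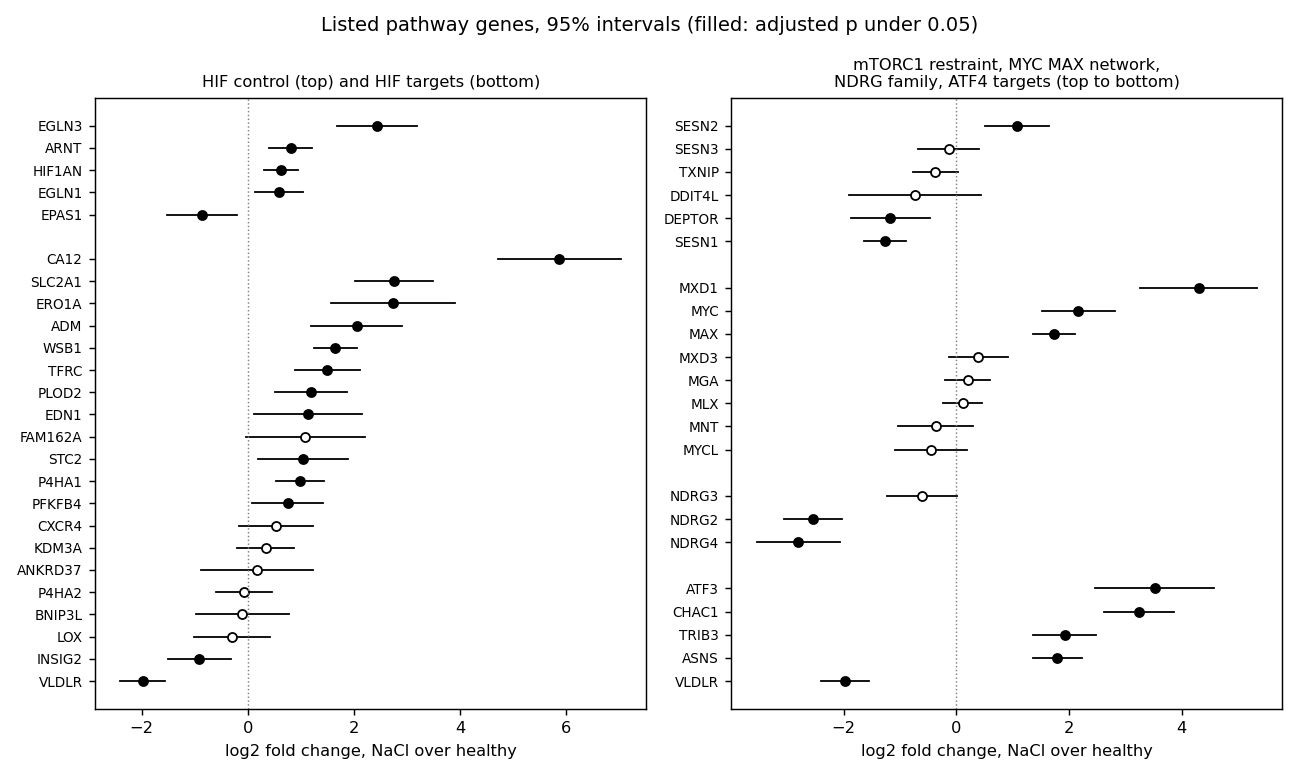
Log2 fold change of NaCl over healthy (points) with 95% intervals (lines) for the tested genes of 6 lists; filled points have an adjusted p under 0.05 by limma. CA12 at 5.87 and MXD1 at 4.30 lie farthest right, and NDRG4 at -2.80 lies farthest left.

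Neutrophil transcripts differed along with these changes. All 6 neutrophil markers tested (S100A8, S100A9, CXCR1, LTF, CAMP and IL1R2) were higher in NaCl than in healthy lungs, where 29.7% of all genes tested were called higher. The summed level of these markers ran from 14637 to 139354 CPM in NaCl lungs, against 1329 to 9781 CPM in healthy lungs. CSF3R, MMP9 and FPR1, which also mark neutrophils, had no read in any library. The part of neutrophils in the changes of HIF1A, NDRG1 and MXI1 was not tested.

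The treatments were each compared with their own control to ask whether they shift these transcripts. None of the 4 genes was called in any of these 3 comparisons. For MSC over NaCl, 0 of 9446 genes were called by limma, 0 by edgeR and 335 by DESeq2, with 17.7% at an unadjusted p under 0.05. For ceftaroline over NaCl, 0 of 9614 were called by limma, 0 by edgeR and 519 by DESeq2, with 18.3% at an unadjusted p under 0.05. For ceftaroline plus MSC over ceftaroline, 4 of 9924 genes were called by limma (0.0403%), 11 by edgeR and 99 by DESeq2, and 11.5% had an unadjusted p under 0.05.

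With MSC, HIF1A had 2026, 4921 and 10567 normalized reads as its lowest, median and highest value, against 3829, 4851 and 12280 in NaCl lungs. The ranges overlapped, with 1 MSC lung below all NaCl lungs. Its log2 fold change was -0.29 (95% interval -1.0 to 0.42). DDIT4 was at -0.03 (95% interval -0.95 to 0.88), and MXI1 at 0.26 (95% interval -0.39 to 0.90). NDRG1 had a median of 507 normalized reads in MSC lungs and 750 in NaCl lungs, with a log2 fold change of -0.59 (95% interval -1.20 to 0.03, adjusted p = 0.305 by limma). Within libraries without a title ending it was at -0.87 (unadjusted p = 0.0118, adjusted p = 0.150), and with the ending as a covariate at -0.70 (unadjusted p = 0.00548, adjusted p = 0.0979). Among the pathway lists, WSB1, a HIF target and ubiquitin ligase component, had the lowest p of the HIF targets (-0.71, SE 0.22, adjusted p = 0.171), and MYC that of the MAX partners (-0.88, SE 0.36, adjusted p = 0.238). EGLN1, TXNIP, DUSP1, ATF3 and NDRG3 had the lowest p of the remaining lists, and none was called.

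With ceftaroline, HIF1A was at a log2 fold change of -0.22 against NaCl (95% interval -1.05 to 0.62), DDIT4 at 0.34 (95% interval -0.65 to 1.33), NDRG1 at -0.55 (95% interval -1.34 to 0.25) and MXI1 at 0.17 (95% interval -0.50 to 0.83). The NaCl libraries with a title ending moved these values. With the 4 NaCl libraries without an ending alone, DDIT4 was at -0.32, NDRG1 at -0.98 (unadjusted p = 0.0353, adjusted p = 0.266 by limma) and MXI1 at -0.18. In the lists, EDN1, a vasoconstrictor peptide and HIF target (-1.25, SE 0.52, adjusted p = 0.226), and MYC (-1.03, SE 0.37, adjusted p = 0.185) had the lowest p of theirs, as had EPAS1, SESN1, KLF9, ASNS and NDRG3 in the other lists, and none was called. Both treatments were set against the same NaCl libraries, so these values are not independent of the MSC values.

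Adding MSC to ceftaroline went with lower mean log2 values of HIF1A, DDIT4 and NDRG1, each with an unadjusted p under 0.05 and none past the adjusted threshold. HIF1A had 1694, 5991 and 7559 normalized reads as its lowest, median and highest value in ceftaroline plus MSC lungs, against 3452, 11481 and 15725 in ceftaroline lungs. The log2 fold change was -0.96 (SE 0.44, unadjusted p = 0.0473, adjusted p = 0.432 by limma). DDIT4 had 6639, 16585 and 32080 normalized reads in ceftaroline plus MSC lungs, against 10694, 29570 and 66288 in ceftaroline lungs, a log2 fold change of -1.0 (SE 0.44, unadjusted p = 0.0401, adjusted p = 0.426). NDRG1 had 414, 451 and 865 normalized reads in ceftaroline plus MSC lungs, against 432, 796 and 1931 in ceftaroline lungs, a log2 fold change of -0.74 (SE 0.33, unadjusted p = 0.0420, adjusted p = 0.426). For these 3 genes the medians of the combined group lay below those of ceftaroline, while the ranges overlapped. MXI1 was at 0.15 (95% interval -0.44 to 0.73).

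Among the 20 tested HIF targets, 18 had a lower mean log2 value with ceftaroline plus MSC than with ceftaroline, with a median log2 fold change of -0.58 where that of all genes tested was 0.00. None was called, and SLC2A1 had the lowest p (-1.13, SE 0.45, unadjusted p = 0.0261, adjusted p = 0.426 by limma). EGLN3 was at -1.25, and had the lowest p of the HIF control genes; SLC7A11, DUSP1, MXD1, NDRG2 and DEPTOR had that of their lists. The summed level of the 6 neutrophil markers ran over 1462, 10524 and 47996 CPM (lowest, median, highest) in ceftaroline plus MSC and over 4646, 27379 and 140341 CPM in ceftaroline, and its part in these values was not tested.

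Whether the MSC effect differed with and without ceftaroline was tested in a fit of the 4 pneumonia groups, where 1 of 10224 genes was called (0.00978%). The effect with ceftaroline minus that without was -0.67 for HIF1A (95% interval -1.86 to 0.53), -0.97 for DDIT4 (95% interval -2.29 to 0.35), -0.15 for NDRG1 (95% interval -1.07 to 0.77) and -0.09 for MXI1 (95% interval -0.74 to 0.55). None passed (adjusted p of 0.964 or more by limma).

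Levels were set side by side across all 5 groups as CPM, with each of the 10 pairs of groups tested per gene by a two-sided exact permutation test on log2(CPM + 1) and adjusted over the 40 tests. The smallest p this design allows is 0.000583. HIF1A had medians of 394 CPM in ceftaroline plus MSC, 725 in ceftaroline, 517 in MSC, 510 in NaCl and 102 in healthy lungs. It was higher than healthy in all 4 pneumonia groups, by 1.68 on the log2 scale in ceftaroline plus MSC (adjusted p = 0.0140 by the exact permutation test) and by 2.54 to 2.82 in the other 3 (adjusted p = 0.00333 each), which did not overlap healthy. All 4 differences were taken from the same healthy lungs, so they are not independent. In NaCl over healthy, 14.7% of all genes tested lay above healthy with no overlap. That share was not computed for the other groups. No pair among ceftaroline, MSC and NaCl passed (adjusted p of 0.641 or more by exact permutation), which does not show that their levels are equal.

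HIF1A was also lower in ceftaroline plus MSC than in NaCl lungs by this test (-1.13, adjusted p = 0.0447 by exact permutation). That call was lost with reads scaled by the library total (-0.77, adjusted p = 0.157). It was also lost when NaCl replicate 1, 4, 5, 6 or 7 or ceftaroline plus MSC replicate 3, 4, 5 or 6 was left out, with values of -1.27 to -0.90 over all omissions.

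NDRG1 had medians of 29.6 CPM in ceftaroline plus MSC, 53.0 in ceftaroline, 53.2 in MSC, 78.7 in NaCl and 39.5 in healthy lungs. From the highest median to the lowest (NaCl, MSC, ceftaroline, healthy, ceftaroline plus MSC), no pair of neighbours passed, and 4 of the 6 pairs farther apart did. NaCl was higher than healthy (1.12, adjusted p = 0.00874 by exact permutation). Ceftaroline plus MSC was lower than NaCl (-1.23, adjusted p = 0.0104 by exact permutation) and lower than MSC (-0.67, adjusted p = 0.0484), and did not pass against healthy (-0.11, adjusted p = 0.735). The difference from MSC was lost when any of 16 libraries was left out: ceftaroline plus MSC replicates 1, 3, 4, 5 and 6, MSC replicates 1 to 5, NaCl replicates 1, 4, 5, 6 and 7 and healthy replicate 6, the last 6 only through the adjustment over all pairs, as was the case without healthy replicates 6 and 7 together (adjusted p = 0.0524). MSC was higher than healthy (0.55, adjusted p = 0.0233), a call lost without MSC replicate 1 (0.40), healthy replicate 6 (0.44) or healthy replicates 6 and 7 (0.48, adjusted p = 0.0738) and with reads scaled by the library total (0.41, adjusted p = 0.128).

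MXI1 had medians of 4.56 CPM in ceftaroline plus MSC, 5.0 in ceftaroline, 4.14 in MSC, 3.60 in NaCl and 8.66 in healthy lungs. Each pneumonia group lay below healthy with no overlap, with log2 differences of -0.86, -0.98, -0.91 and -1.13 in that order of groups (adjusted p = 0.00333 each by exact permutation). These differences share the same healthy lungs, so they are not independent. In NaCl over healthy, 15.2% of all genes tested lay below healthy with no overlap. Such a share was not computed for the other groups. No pair of pneumonia groups passed for MXI1 (adjusted p of 0.390 or more by exact permutation). DDIT4 had medians of 1092 CPM in ceftaroline plus MSC, 1911 in ceftaroline, 1330 in MSC, 1464 in NaCl and 1080 in healthy lungs, and none of its 10 pairs passed. The lowest adjusted p was that of ceftaroline over healthy (1.07, adjusted p = 0.0683 by exact permutation), which passed without ceftaroline replicate 7 (1.31, adjusted p = 0.00932).

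Among rabbits with pneumonia, the genes were related by their deviations from the group mean of log2(CPM + 1) in 28 libraries, with p from 100000 permutations within groups, two-sided, adjusted over 10 relations. DDIT4 and NDRG1 went together (Pearson's r = 0.79, adjusted p = 5.0e-05; Spearman's rho = 0.81, adjusted p = 1.0e-04), with an unadjusted p at the smallest value the permutations can give. Within groups their r was 0.73 in ceftaroline plus MSC, 0.69 in ceftaroline, 0.94 in MSC and 0.92 in NaCl. In libraries without a title ending it was 0.71, and without the 2 libraries farthest from the median of DDIT4 it was 0.77.

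HIF1A and MXI1 ran in opposite directions (Pearson's r = -0.66, adjusted p = 0.00117; Spearman's rho = -0.74, adjusted p = 1.0e-04, n = 28, by permutation). Within groups their r was -0.75 in ceftaroline plus MSC, -0.77 in ceftaroline, -0.57 in MSC and -0.57 in NaCl, it was -0.71 in libraries without a title ending, and -0.64 without the 2 farthest libraries. The same sign thus stood in each of the 4 groups. How many of all genes have an r this low with HIF1A or with MXI1 was not computed, so the value is not read as particular to this pair.

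HIF1A was also set against DDIT4 and NDRG1. With DDIT4, Pearson's r was 0.45 (adjusted p = 0.0409; Spearman's rho = 0.45, adjusted p = 0.0459, by permutation), but it was 0.96 in ceftaroline plus MSC and 0.35, 0.33 and 0.08 in ceftaroline, MSC and NaCl. It was 0.33 without the 2 farthest libraries, and the adjusted p was above 0.05 when any of 11 libraries was left out (NaCl replicates 4 and 7, MSC replicate 6, ceftaroline replicates 4 and 7, and ceftaroline plus MSC replicates 1 to 6). In libraries without a title ending it was 0.52 (adjusted p = 0.0420). With NDRG1, r was 0.18 (adjusted p = 0.447; rho = 0.19, adjusted p = 0.401; 0.18 without an ending and 0.10 without the 2 farthest libraries). Within groups it was 0.76 in ceftaroline plus MSC, 0.09 in ceftaroline, 0.31 in MSC and -0.25 in NaCl. The relation of NDRG1 and MXI1 (r = 0.35, adjusted p = 0.139; rho = 0.23, adjusted p = 0.357; 0.25 without an ending and 0.25 without the 2 farthest) passed without ceftaroline replicate 7 (0.47, adjusted p = 0.0449); within groups it was -0.22, 0.37, 0.24 and 0.70 in the same order. That of DDIT4 and MXI1 was 0.04 (adjusted p = 0.860; rho = -0.02, adjusted p = 0.916; 0.07 without the 2 farthest). Within groups it had both signs, at -0.74 in ceftaroline plus MSC, -0.15 in ceftaroline, 0.33 in MSC and 0.54 in NaCl.

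**Figure D5:**
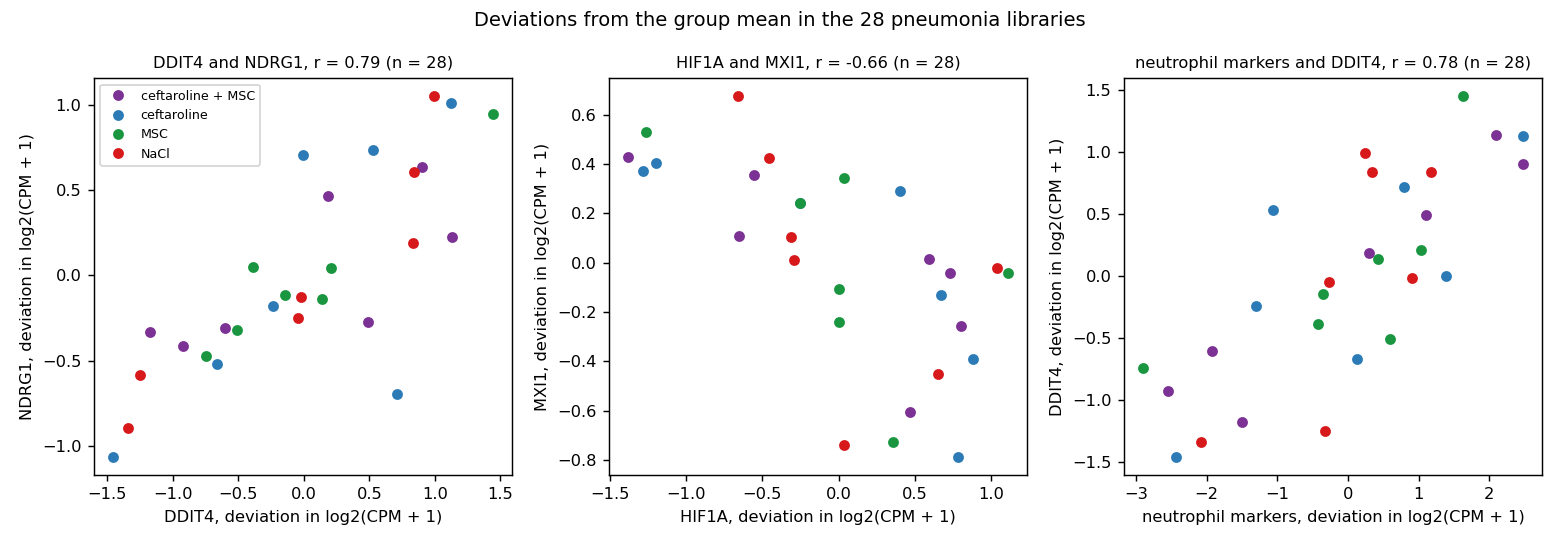
Deviations from the group mean of log2(CPM + 1) in 28 pneumonia libraries (points, coloured by group) for 3 pairs of measures. DDIT4 and NDRG1 lie along a rising line (r = 0.79), HIF1A and MXI1 along a falling one (r = -0.66), and the summed neutrophil markers and DDIT4 along a rising one (r = 0.78).

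The summed neutrophil markers went with DDIT4 (r = 0.78, adjusted p = 5.0e-05; rho = 0.80, adjusted p = 1.0e-04, by permutation), HIF1A (r = 0.68, adjusted p = 0.00120; rho = 0.63, adjusted p = 0.00282) and NDRG1 (r = 0.62, adjusted p = 0.00140; rho = 0.60, adjusted p = 0.00282), and the relation with MXI1 did not pass (r = -0.22, adjusted p = 0.328; rho = -0.28, adjusted p = 0.237). In libraries without a title ending these were 0.81, 0.70, 0.57 and -0.39, and without the 2 farthest libraries 0.76, 0.66, 0.61 and -0.16. Within groups, r with DDIT4 was 0.95 in ceftaroline plus MSC, 0.73 in ceftaroline, 0.74 in MSC and 0.75 in NaCl. With HIF1A it was 0.87, 0.78, 0.79 and -0.18 in the same order, so NaCl lungs did not show it. With NDRG1 it was 0.77, 0.59, 0.68 and 0.70, and with MXI1 it was -0.68, -0.38, -0.33 and 0.70, positive in NaCl lungs where it was negative in the other 3 groups. Whether neutrophil content accounts for the relation of DDIT4 and NDRG1 was not tested.

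Over 6721 named genes that averaged 50 reads or more, those whose deviations were most like HIF1A over the 28 libraries were CHD1 (r = 0.89), NDFIP2 (0.89) and RAB8B (0.88). Most like DDIT4 were KDM3A (r = 0.90), ALDOA (0.88) and ARHGAP25 (0.88). Most like NDRG1 were ERO1A (r = 0.87), ANKRD37 (0.87) and TPI1 (0.85). Most like MXI1 were KCNH6 (r = 0.87), LYRM1 (0.81) and PINK1 (0.81). The 95th percentile of r over all 6721 genes was 0.71 for HIF1A, 0.73 for DDIT4, 0.60 for NDRG1 and 0.56 for MXI1. The 20 HIF targets had a median r of 0.66 with DDIT4 and 0.57 with NDRG1, against 0.27 with HIF1A and 0.19 with MXI1. Over all 6721 genes the median r was -0.026, -0.045, 0.013 and -0.005 in that order. Of the 20 targets, 11, 12, 5 and 3 in that order had an r of at least 0.5, and 0, 0, 1 and 2 had an r of -0.5 or less. The share of all genes with such r was not computed.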

How the data were processed

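Lung messenger RNA of 35 rabbits was sequenced with a stranded kit as single reads of 75 bp. Per the labels' protocols, bcl2fastq2 (2.18.12) separated the samples and Cutadapt (1.15) trimmed adapters. The submitters' processing notes name TopHat2 (2.1.1), featureCounts (1.5.2) and DESeq2 (1.24.0) without saying which step each served. Genome build, annotation and use of strand in counting: not given in the sources used here. There are 4 deposited tables of 14 libraries each. Per the file headers, they hold a signal per gene, which is reads divided by a size factor that differs between tables. They also hold the authors' log2 fold change and its error, a test score, and the authors' p-value before and after adjustment. Every signal value was a whole multiple of what 1 read is worth (relative tolerance 1e-06), so whole reads were recovered, and the 21 library columns that appear again in another table gave identical reads. A read count has no molecular identifiers, so precision here covers counting and the spread between rabbits. Replicates were numbered in accession order.

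Comparisons used limma 3.58.1 (R 4.3.3) with an intensity trend on log2(normalized reads + 1) of the 2 groups, without covariates, for genes of at least 10 in at least 7 of 14 libraries, two-sided, with Benjamini-Hochberg adjustment over all genes tested. Fold changes are on that scale, which understates changes of low genes. The count tests edgeR 4.0.16 and DESeq2 1.42.0 on recovered reads were alternatives. CPM are recovered reads scaled by edgeR's TMM over 35 libraries, and are not divided by gene length, so levels are compared within a gene only. The fits were tested on simulated data. The members, the gene lists and the rule for named genes (called list genes with the 3 largest rises and the 3 largest falls; elsewhere the lowest p of each list; 3 most similar genes per member) were chosen with earlier results of these data known. The lists are HIF control, HIF targets, mTORC1 restraint, glucocorticoid-induced, ATF4 targets, MYC MAX network, NDRG family and 8 sets of cell type markers; 1 further neutrophil marker was taken out of its list after the analysis and is not reported here. The alternatives were other scalings, pseudocounts, filters, thresholds, title-ending subsets and covariate, a block by title number, a joint fit, leaving out each library and, chosen after seeing the data, leaving out healthy replicates 6 and 7.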

Additional observations from a re-analysis of the deposited data

Results flagged for a closer look

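DDIT4 differed between sets of libraries. Its log2 fold change of NaCl over healthy in libraries with a title ending minus that in libraries without was -2.31 (adjusted p = 0.0219 by limma, for 3 NaCl and 5 healthy libraries with an ending and 4 and 2 without; -2.14 and 0.0548 without healthy replicates 6 and 7). NDRG1 in MSC was flagged because MSC replicate 1, at 112 CPM, stood apart from the other 6 MSC libraries, which lay at 41.4 to 59.7 CPM; the same library was the highest of its group for DDIT4, at 3998 CPM. NDRG1 in healthy was flagged because healthy replicate 6, at 24.1 CPM, stood below the other 6 healthy libraries, which lay at 37.0 to 48.1 CPM; it is 1 of the 2 healthy libraries whose titles begin with the letter of the ceftaroline titles. In all, 20 sets of 7 libraries were checked for such values, and chance flags about 1 in 20.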

How the results depend on the processing

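The limma calls of HIF1A and NDRG1 in NaCl over healthy held under every alternative fit run. For DDIT4 the log2 fold change was 0.88 with DESeq2 and 1.94 without a title ending, both called, and -0.37 with an ending; MXI1 was at -1.08 without an ending. Scaling by the library total moved the median of all genes by -0.40 in NaCl over healthy (1489 genes called higher and 4352 lower, against 2836 and 2952), 0.28 in MSC over NaCl, 0.23 in ceftaroline over NaCl and 0.14 in ceftaroline plus MSC over ceftaroline. It gave, against NaCl, 0.0096 for HIF1A and 0.27 for DDIT4 with MSC and 0.032 for HIF1A with ceftaroline, in the fits and the pair tests, and -0.013 for NDRG1 in ceftaroline minus MSC. With an ending, DDIT4 was at 0.23 in MSC over NaCl. Without an ending, MXI1 was at -0.037 in MSC over NaCl (-0.015 in the pair test), DDIT4 at -0.32 and MXI1 at -0.18 in ceftaroline over NaCl (-0.32 and -0.18 with the ending as covariate, -0.29 and -0.12 in the pair tests), and ceftaroline minus MSC was -0.091 for HIF1A and -0.10 for NDRG1. There the difference of the MSC effects was 0.12 for NDRG1 and 0.13 for MXI1, and r of DDIT4 and MXI1 was -0.23. None of the values with a changed sign passed, and the cause was not tested. Without healthy replicates 6 and 7, an alternative chosen after seeing the data, the 4 genes kept their side of the threshold in NaCl over healthy (2.83 for HIF1A, 0.92 for DDIT4, 1.09 for NDRG1 and -1.32 for MXI1). Without an ending, with 2 healthy and 4 NaCl libraries left, no pair test that had passed did so, at adjusted p of 0.121 to 0.397 by exact permutation; with so few libraries this says nothing about stability.

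In NaCl over healthy, 3650 genes were called without an ending. In MSC over NaCl 335 were called with DESeq2, 260 with scaling by the total, 1 without a filter, 7 without an ending and 305 in a fit of all 35 libraries. In ceftaroline over NaCl these were 519 with DESeq2, 1 with scaling by the total, 2 with the ending as covariate and 379 in the fit of all libraries. In ceftaroline plus MSC over ceftaroline they were 11 with edgeR, 99 with DESeq2, 9 with TMM, 24 with scaling by the total, 9 in the fit of all libraries, and 2 and 23 at adjusted p thresholds of 0.01 and 0.1. The labels do not state whether title numbers pair these groups. The correlations of same-numbered libraries ran from -0.385 to 0.484. They were not set against those of differently numbered libraries, so pairing was not tested. With the replicate block by title number no gene was called in the 3 treatment comparisons (0 in ceftaroline plus MSC over ceftaroline). In ceftaroline plus MSC over ceftaroline, HIF1A with the block was at -0.96 (unadjusted p = 0.0111, adjusted p = 0.374 by limma). Its unadjusted p was 0.0473 without the block. With the block the unadjusted p by limma was 0.0656 for DDIT4 and 0.0710 for NDRG1. No fit with an ending exists for ceftaroline, whose titles have none.

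Leaving out each library gave 0.54 to 0.94 for DDIT4 in NaCl over healthy. In the other fits that changed sign it gave -0.27 to 0.13 for DDIT4 in MSC over NaCl, -0.37 to 0.00028 for HIF1A in ceftaroline over NaCl, -0.025 to 0.27 for MXI1 in ceftaroline plus MSC over ceftaroline, and -0.34 to 0.0052 for NDRG1 and -0.23 to 0.015 for MXI1 in the difference of the MSC effects. Genes called were 0 to 3 with MSC, 0 to 189 with ceftaroline (189 without NaCl replicate 1) and 2 to 14 with ceftaroline plus MSC. In pair tests it gave -0.33 to 0.028 (HIF1A, ceftaroline minus NaCl), -0.12 to 0.30 (HIF1A, ceftaroline minus MSC), -1.07 to -0.63 (HIF1A, ceftaroline plus MSC minus MSC, called without MSC replicate 6), -0.11 to 0.27 (DDIT4, ceftaroline plus MSC minus healthy), -0.26 to 0.15 (DDIT4, MSC minus NaCl), -0.11 to 0.23 (NDRG1, ceftaroline minus MSC), -0.18 to 0.069 (MXI1, ceftaroline minus MSC), -0.014 to 0.22 (MXI1, ceftaroline plus MSC minus ceftaroline) and -0.067 to 0.16 (MXI1, ceftaroline plus MSC minus MSC), and -0.10 to 0.12 for r of DDIT4 and MXI1. MXI1, at 18 to 149 reads, is the gene whose depth limits precision most.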

Other observations

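The cell type marker lists other than neutrophils were also described in NaCl against healthy lungs. There 29.7% of all genes tested were called higher, 30.9% lower and 60.6% in either direction. Of 10 tested macrophage markers, 5 were higher and none lower, and their summed level was 1079 to 6341 CPM in NaCl and 536 to 952 CPM in healthy lungs. All 5 tested type I cell markers, all 3 tested type II cell markers and both tested airway markers were lower. Of 7 tested endothelial markers, 1 was higher and 5 lower, while their summed level had a median of 1902 CPM in NaCl and 1814 CPM in healthy lungs. None of 4 lymphocyte and 2 red cell markers passed. In ceftaroline plus MSC against ceftaroline, no marker of any list was called, and all 6 neutrophil markers had a lower mean log2 value (median log2 fold change -1.89).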
